A study of Mus musculus with 2 samples.

Results

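The replication-dependent histone genes of the mouse were examined in total RNA of the heart. Members were all annotated genes whose symbol begins with Hist1h, Hist2h, Hist3h or Hist4h, with no use of their measured level. This rule gave 70 genes of 55536 annotated genes: 6 for the linker histone H1, and 20, 19, 12 and 13 for the core histones H2A, H2B, H3 and H4. The tissue was heart, taken at an age of 14 days from B6CASTF1/J females, whose parents were C57BL/6J and CAST/EiJ, with no treatment named in the labels. There was 1 group of 2 libraries, with an input of 300 ng of RNA each and ERCC spike-ins. Both libraries carry the same donor label but different animal numbers, and their shared description can be read as a pool, so an SD (n = 2) is the spread between libraries and may be partly technical. With 1 group, no test between conditions was possible.

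Histones are the proteins around which DNA is wound. A pair each of H2A, H2B, H3 and H4 forms the nucleosome core, and H1 binds the DNA between cores. The genes described here are expressed mainly in S phase, when newly copied DNA must be packaged. Nearly all lack introns (65 of the 70 have only single-exon models), and their messenger RNAs end in a conserved stem-loop in place of a poly(A) tail. The stem-loop is bound by SLBP, which serves the cleavage, translation and decay of these messages, while U7 small nuclear RNA recognizes a site downstream of it. Total RNA keeps messages without a poly(A) tail, which a poly(A) selection would lose. Replacement variants such as H3.3, encoded by H3f3a and H3f3b, are made outside S phase from ordinary polyadenylated messages and serve in cells that no longer divide, as most heart muscle cells soon do after birth.

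The stem-loop is shown first because it defines this class of messages and is the sequence in which H4 departs from the other histones. A run of 16 bases that follows the pattern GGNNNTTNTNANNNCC, can pair along a stem of 6 base pairs (G with T allowed) and lies after the stop codon was found in 46 members. A match to that pattern anywhere in the transcript was present in 101 of 58725 protein-coding transcripts of other genes, 0.172%. In the lines below, capitals mark the stem-loop, lower case its flanks, and T stands for U, as in the GENCODE M21 transcripts (mm10).
Hist1h1c (chr13:23739512-23739527, plus strand): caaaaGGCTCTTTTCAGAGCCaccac
Hist2h2aa2 (chr3:96239784-96239799, minus strand): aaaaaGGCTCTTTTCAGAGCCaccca
Hist1h2bg (chr13:23571843-23571858, plus strand): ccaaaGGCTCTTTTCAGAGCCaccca
Hist1h3b (chr13:23752820-23752835, plus strand): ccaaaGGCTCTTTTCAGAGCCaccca
Hist1h3e (chr13:23561903-23561918, minus strand): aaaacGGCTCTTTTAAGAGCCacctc
Hist1h4h (chr13:23531458-23531473, plus strand): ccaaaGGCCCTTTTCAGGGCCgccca
Hist1h4b (chr13:23757366-23757381, plus strand): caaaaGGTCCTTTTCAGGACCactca

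The 34 stem-loops of H1, H2A, H2B and H3 genes came in 4 letter forms and the 12 of H4 genes in 4 others, with 0 forms in common. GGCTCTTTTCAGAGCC was the form in 26 members, of which 3 were H1, 10 H2A, 8 H2B and 5 H3 genes. Next among these types was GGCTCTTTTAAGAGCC, in 6 members, and Hist2h2ac and Hist1h3g had a form each of their own. In H4 genes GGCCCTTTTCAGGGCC occurred in 7 members, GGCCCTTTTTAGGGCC in 2 (Hist1h4i and Hist2h4) and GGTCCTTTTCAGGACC in 2 (Hist1h4b and Hist1h4j), and Hist1h4a had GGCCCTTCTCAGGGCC. The stem-loop began 21 to 58 bases after the stop codon, with a median of 31.0. Of the 24 members without a match, 17 have an annotated model that ends within 20 bases of the stop codon and 3 have no coding sequence. The other 4 were Hist1h1a, Hist1h2bc, Hist2h2be and Hist2h3b. In 23 members the annotated model runs more than 100 bases past the stem-loop, by up to 4884 bases in Hist1h1d. Levels below are per annotated length, so the model of a gene bears on its level.

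Promoters of the same genes hold known motifs, and 4 windows, 1 each of an H1, H2B, H3 and H4 gene, are given as examples. RefSeq promoters (GRCm38.p6, 250 bases before to 50 after the start) matched 61 of the 70 members. The lines hold the 120 bases before the RefSeq start, with capitals for 3 motifs. CCAAT, a promoter box, was sought on both strands. TATAAA, a form of the TATA box, was sought on the given strand only. The octamer ATGCAAAT, bound by POU2F1, was sought on both strands.
Hist1h1c promoter (chr13:23738687-23738806, plus strand): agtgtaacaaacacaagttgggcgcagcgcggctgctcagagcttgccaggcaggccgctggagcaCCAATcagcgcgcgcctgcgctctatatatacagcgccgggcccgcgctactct
Hist1h2bg promoter (chr13:23571280-23571399, plus strand): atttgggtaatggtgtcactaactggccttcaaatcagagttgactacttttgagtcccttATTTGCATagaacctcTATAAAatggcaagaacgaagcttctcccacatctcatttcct
Hist1h3h promoter (chr13:21717508-21717627, plus strand): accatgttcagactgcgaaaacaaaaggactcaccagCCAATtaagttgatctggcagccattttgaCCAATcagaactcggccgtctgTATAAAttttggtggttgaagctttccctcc
Hist1h4k promoter (chr13:21750554-21750673, minus strand): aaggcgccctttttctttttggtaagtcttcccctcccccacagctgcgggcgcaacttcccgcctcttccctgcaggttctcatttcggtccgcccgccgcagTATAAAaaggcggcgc

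CCAAT, the letters that the trimer NF-Y binds, was searched on both strands and was present in 52 of 61 member promoters (85.2%), against 37.4% of all 32851 RefSeq promoters of the same length. All 49 H1, H2A, H2B and H3 promoters held it somewhere in their 300 bases (outside the printed window in Hist1h2bg), and 3 of 12 H4 promoters did (Hist1h4a, Hist1h4c and Hist1h4d). ATGCAAAT, searched on both strands, was in 7 of 17 H2A and 7 of 16 H2B promoters, in 0 promoters of the other 3 types, and in 1.74% of all promoters. H2A and H2B genes that lie head to head have overlapping windows, such as Hist1h2ae (chr13:23571171-23571470) and Hist1h2bg (chr13:23571150-23571449). A single site can thus count for both genes, so the H2A and H2B counts of CCAAT and ATGCAAAT are not of independent promoters. TATAAA, searched on the strand of the gene, was in 30 of 61 member promoters (49.2%), against 8.32% of all promoters. By type it was in 4 of 6 H1, 10 of 17 H2A, 4 of 16 H2B, 4 of 10 H3 and 8 of 12 H4 promoters. These matches lie anywhere in the 300 bases, so not all are at the place of a TATA box. Among H4 genes only Hist1h4d and Hist1h4k held TATAAA wholly within the 120 bases before the start. Matches of different motifs overlapped in 0 of the 61 member promoters, and a match describes letters, not binding.

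Depth was 36404376 expected counts in replicate 1 and 34569708 in replicate 2. Expected counts are reads divided by estimation between features that share sequence, and TPM, the unit of level used here, divides them by effective length and scales each library to the same sum. The heart label was checked against 8 heart muscle genes, which summed to 37625 and 39659 TPM. The libraries differed in markers of other tissues: 3 airway genes summed to 139 and 9.16 TPM in replicates 1 and 2, 5 thymus genes to 1.30 and 0.160 TPM, and 10 red cell genes to 35953 and 27773 TPM. Testis genes were at 0 counts in both. The part of these cells in the histone values was not tested, so each library's value is given throughout. Fewer cells of a type and less RNA per cell cannot be told apart in such bulk tissue.

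Histone messages were a small fraction of the reads and a larger one of the molecules, being short. Members held 23749 counts in replicate 1 and 23399 in replicate 2, or 0.0656% and 0.0681% of the counts of annotated genes. Their summed level was 1553 and 1549 TPM, 1551 ± 3.04 (SD, n = 2), so the sum differed little between the libraries. A level of at least 1 TPM in both libraries was reached by 61 of the 70 members, against 22.8% of all annotated genes and 52.3% of protein-coding genes. By mean level, 40 members were at 10 TPM or more, 22 between 1 and 10 TPM and 8 under 1 TPM. The 10 highest took 50.9% of the summed TPM and the single highest, Hist1h4h, 13.6%, so the output was spread over many genes with a few far above the rest. A count of 0 was recorded in both libraries for Hist1h2ba, Hist1h2aa, Hist1h2aj and Hist1h2ao, where 0 allows up to 3 counts, or 0.0829 and 0.0873 CPM (counts scaled to library size), by counting error alone. Read division allows more: the deposited upper bounds were 11.4 and 14.1 TPM for Hist1h2ao, which shares 92.7% of its 100-base windows with other genes, and 1.86 and 2.20 TPM for Hist1h2aj, which shares 91.7%. Hist1h2ba and Hist1h2aa, a divergent pair, are known for expression in testis.

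**Figure D1:**
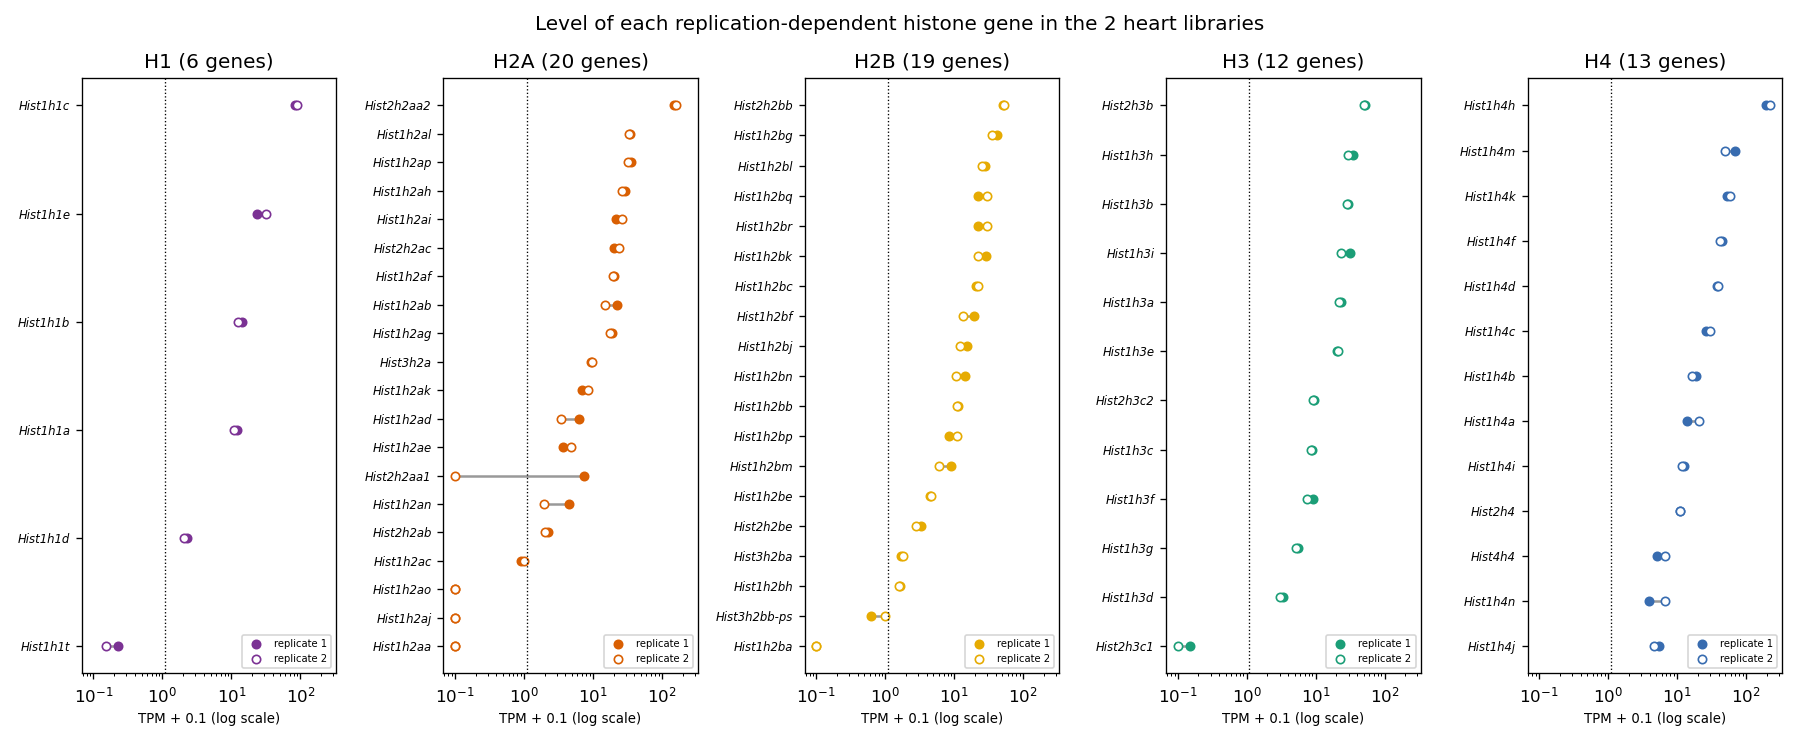
TPM + 0.1 of each of the 70 genes on a log axis, by histone type, in replicate 1 (filled) and replicate 2 (open) of the heart libraries, with the dotted line at 1 TPM. Hist1h4h is highest at 195 and 226 TPM, and Hist2h2aa1 has the widest gap between the libraries, at 7.26 and 0 TPM.

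H4 and H2A genes held the largest shares of histone TPM. H4 took 32.8% ± 1.28 (SD, n = 2) of the summed level, with 496 TPM in replicate 1 and 523 TPM in replicate 2. H2A took 25.1% ± 0.324, with 393 and 385 TPM, and H2B 19.1% ± 0.492, with 301 and 289.8 TPM. H3 took 14.0% ± 0.899, with 227 and 207 TPM, and H1 9.05% ± 0.436, with 136 and 145 TPM. The order H4, H2A, H2B, H3, H1 was the same in both libraries, and no pair of neighbours in it overlapped between libraries. It depended on the scale. Of the expected counts, undivided by length, H1 genes took 24.3% and came second after H4 at 28.1%. The deposited tables hold 2 estimates of level, and the second, summed from a separate set of transcript tables, put H2A first at 30.1%, above H4 at 27.6%. In that estimate the other shares were 16.8% for H2B, 16.5% for H3 and 8.93% for H1.

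**Figure D2:**
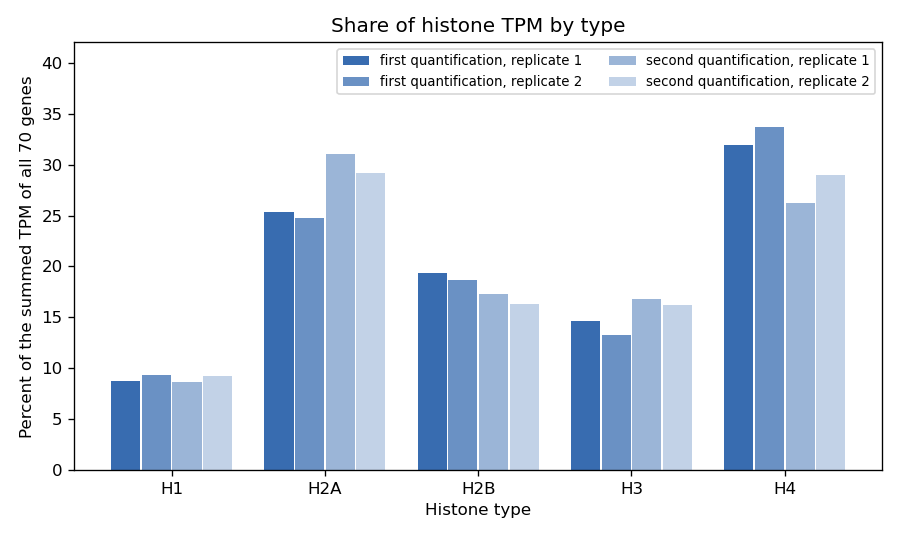
Percent of the summed TPM of the 70 genes in each histone type, by library and quantification, as bars from 0. H4 is highest in the first quantification (32.8% on average) and H2A in the second (30.1%), while H1 is lowest in all 4 sets of bars.

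Most of this output came from the Hist1 genes of chromosome 13. All 56 took 79.1% ± 0.349 of the summed TPM. Of these, 55 lie in the cluster at chr13:21715763-23934851 and took 77.1% and 76.6% in the libraries, while the processed pseudogene Hist1h2al lies far off, at chr13:51202727-51203065. Next, the 10 Hist2 genes on chromosome 3 took 19.8% ± 0.230. The copies Hist2h2aa1 and Hist2h2aa2 together made up 51.4% and 51.5% of the Hist2 share, and 61.7% and 61.0% in the second quantification, which put the whole level of the pair on Hist2h2aa1. The 3 Hist3 genes on chromosome 11 took 0.765% ± 0.0471 and Hist4h4, alone on chromosome 6, 0.378% ± 0.0714. Per gene, the median level was 16.6 TPM in Hist1, 10.1 TPM in Hist2 and 1.68 TPM in Hist3. The second quantification gave 76.6%, 22.6%, 0.680% and 0.135% for the 4 clusters, the same order.

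H4 is the most conserved core histone, and its 13 members all encode 1 protein from 12 distinct coding sequences. Proteins were compared by translation of 1 annotated model per gene, the one with the highest TPM. All 13 were above 1 TPM in both libraries, from Hist1h4j at a mean of 4.96 TPM upward. Hist1h4h (chr13:23531050-23531519, plus strand) was the highest of all 70 genes, at 195 TPM in replicate 1 and 226 TPM in replicate 2 (210.3 ± 22.1, SD, n = 2). It made up 41.3% of all H4 TPM and was 16.5 times the median member. Hist1h4m was at 68.2 and 49.8 TPM, higher in replicate 1. Hist1h4k was at 53.5 and 58.9 TPM, and Hist1h4f at 44.4 and 41.5 TPM. Hist1h4d, with a model of 1138 bases and 0% of its 100-base windows found in another gene, was at 38.5 and 39.7 TPM. Hist1h4m and Hist1h4k overlapped between libraries, while the library values of Hist1h4k, Hist1h4f and Hist1h4d kept their order without overlap. In replicate 1 the deposited interval of Hist1h4f (38.6 to 48.5 TPM) overlaps those of Hist1h4k (41.4 to 63.1 TPM) and Hist1h4d (35.5 to 39.9 TPM). In replicate 2 it (35.9 to 45.6 TPM) overlaps those of Hist1h4d and Hist1h4m (39.4 to 56.1 TPM) but not that of Hist1h4k. In the second quantification Hist1h4f was below Hist1h4d, at 1.63 and 3.59 TPM on average. Hist1h4d held 1125.1 and 1120.0 counts, more than every other H4 gene except Hist1h4h. Hist4h4, whose model of 2863 bases is the longest of the type, was at 5.08 and 6.63 TPM from 395 and 497 counts. The 8 members outside the 5 highest had means from 4.96 to 28.0 TPM.

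H2A genes encode 9 distinct proteins by these models. Of the 20 members, 15 reached 1 TPM in both libraries. Hist2h2aa2 (chr3:96239749-96240276, minus strand) was highest, at 149 and 159 TPM (154 ± 6.78). Every 100-base window of it recurs in another gene, among them its neighbour copy Hist2h2aa1, which encodes the same protein from the same coding sequence and was at 7.26 and 0 TPM. The sum of both copies was at 157 and 159 TPM, 158 ± 1.65, so their sum was steadier than either gene. Next came Hist1h2al, annotated as a processed pseudogene, at 34.7 and 33.7 TPM. Hist1h2ap was at 35.7 and 31.9 TPM, and its copy Hist1h2ao at 0 in both. Hist1h2ah was at 29.0 and 26.8 TPM, and Hist1h2ai at 21.6 and 26.1 TPM. Hist1h2al and Hist1h2ap exchanged places between the libraries, and Hist1h2ah stood above Hist1h2ai in both, narrowly so in replicate 2. The other 15 members had means from 0 to 21.8 TPM. The 9 Hist1 genes that encode 1 shared H2A protein summed to 114 and 102 TPM, less than the Hist2h2aa pair, and to 195 and 177 TPM against 229 and 232 TPM in the second quantification.

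H2B members encode 11 distinct proteins by these models, or 13 over all annotated models, and 17 of 19 reached 1 TPM in both libraries. Hist2h2bb (chr3:96269752-96270132, plus strand) was at 50.5 and 52.0 TPM. Hist1h2bg, whose promoter window above holds the octamer and TATAAA, was at 41.9 and 35.8 TPM, and Hist1h2bl at 27.7 and 25.1 TPM. The library values of these 3 kept their order without overlap. In replicate 1 the deposited intervals of Hist2h2bb (44.6 to 54.4 TPM) and Hist1h2bg (36.9 to 45.0 TPM) overlap narrowly, and in replicate 2 they do not. Hist1h2bq (22.3 and 29.3 TPM) and Hist1h2br (22.0 and 29.5 TPM) have identical coding sequences and almost equal values in each library. Their deposited intervals were wide, from 4.19 to 40.9 TPM for Hist1h2bq in replicate 1 and from 1.11 to 54.9 TPM in replicate 2. Their sum was 44.2 and 58.8 TPM, higher in replicate 2. The other 14 members had means from 0 to 25.1 TPM. One H2B protein is encoded by 6 of these genes (Hist1h2bf, Hist1h2bj, Hist1h2bl, Hist1h2bn, Hist1h2bq and Hist1h2br), which summed to 121 and 119 TPM. Members with several annotated transcripts were expressed mainly from 1: Hist1h2be-201 took 74.0% and 73.1% of Hist1h2be, with 26.0% and 26.9% in the noncoding Hist1h2be-203, and Hist1h2bp-201 took all of Hist1h2bp in both.

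H3 members divide into 2 proteins by these models, and another model of Hist2h3c1 adds 1 more. The 8 genes that share the product of Hist2h3b, known as H3.2, summed to 133 and 127 TPM (129.8 ± 3.93). The 4 genes that share the product of Hist1h3a, known as H3.1, namely Hist1h3a, Hist1h3g, Hist1h3h and Hist1h3i, summed to 94.5 and 79.8 TPM (87.1 ± 10.4). Summed H3.2 messages were thus above summed H3.1 messages in both libraries, by more than either spread. The second quantification had the same order, at 188 and 189.7 TPM against 88.4 and 81.8 TPM. These sums are over 8 and 4 genes. Reads may also be divided between the sets, since Hist1h3h shares 92.0% of its windows, with genes of both proteins. Hist2h3b (chr3:96268654-96269141, plus strand) was the highest H3 gene at 52.2 and 49.7 TPM. Hist1h3h was at 34.6 and 29.4 TPM, Hist1h3b at 29.4 and 28.3 TPM, Hist1h3i at 31.4 and 23.4 TPM and Hist1h3a at 23.1 and 21.8 TPM. Behind Hist2h3b, the ranges of Hist1h3h, Hist1h3b and Hist1h3i overlap between libraries. Hist2h3c2 was at 9.26 and 9.16 TPM and Hist2h3c1 at 0.05 and 0 TPM, and both encode the H3.2 protein from 1 coding sequence. The 7 members outside the 5 highest had means from 0.0250 to 20.6 TPM.

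H1 genes encode a different protein each. Hist1h1c (chr13:23738808-23740367, plus strand), the gene of H1.2, was at 83.6 and 87.9 TPM (85.7 ± 3.05) and made up 61.1% of H1 TPM. Hist1h1e, the gene of H1.4, was at 23.8 and 32.1 TPM and so higher in replicate 2. Hist1h1b, the gene of H1.5, was at 14.1 and 12.2 TPM, and Hist1h1a, the gene of H1.1, at 12.1 and 10.8 TPM. The latter 2 lay close together, with Hist1h1b the higher in each library, and Hist1h1c and Hist1h1e stood above them in both. Hist1h1d, the gene of H1.3, was at 2.16 and 1.98 TPM over a model of 7425 bases. Hist1h1t, the H1 of the testis, held 3 counts in replicate 1 and 1 in replicate 2, at or under the limit that a count of 0 allows. Hist1h1a and Hist1h1b share 0% of their 100-base windows with other genes and had whole-number counts, so no reads of theirs were divided with other genes.

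The smaller clusters were low. Hist3h2a, on chromosome 11, was at 9.21 and 9.74 TPM (9.48 ± 0.375), Hist3h2ba at 1.62 and 1.74 TPM, and the pseudogene Hist3h2bb-ps at 0.530 and 0.880 TPM. Hist3h2a thus stood above both neighbours in each library. Its model runs 1643 bases past the stem-loop. Reckoned over the length to the end of the stem-loop, its level would be 46.7 and 49.4 TPM, and that of Hist4h4 would be 44.0 and 57.4 TPM. The same reckoning puts Hist1h4d at 149 and 153 TPM and Hist1h1c at 197 and 207 TPM. It assumes that all counts lie before the end of the stem-loop, which gene tables cannot show, and it was chosen after the data were seen.

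Many H2A and H2B genes lie head to head, with their promoters in the stretch between them. There were 14 such pairs, with 173 to 306 bases between their annotated starts, and in 10 of them both genes had a mean count of at least 10. Mean TPM lay within 2-fold in 5 of these 10 pairs, and H2B was the higher gene in 6. Hist1h2ah and Hist1h2bk were close, at 27.9 and 25.1 TPM on average, and so were Hist1h2ai and Hist1h2bl, at 23.8 and 26.4 TPM. Others were far apart. Hist1h2bc was at 20.4 and 22.1 TPM against 0.820 and 0.920 TPM for Hist1h2ac, whose model of 2482 bases runs 2010 bases past its stem-loop. The model of Hist1h2bc has 1156 bases, and the part of model length in this gap was not tested. Hist1h2bg was at 41.9 and 35.8 TPM against 3.61 and 4.77 TPM for Hist1h2ae. In 4 of the 10 pairs both genes leaned to the same library. In the second quantification Hist1h2ae was at 23.6 TPM and Hist1h2bg at 18.9 TPM on average, and Hist1h2ad and Hist1h2bf at 68.8 and 54.2 TPM, both pairs now within 2-fold. Pairs close in the first estimate came apart there, with Hist1h2ai and Hist1h2bl at 22.5 and 3.15 TPM and Hist1h2ap and Hist1h2br at 30.9 and 0.0385 TPM. In all, 4 of the 10 pairs lay within 2-fold in the second quantification, and 2 in both, so the balance within a pair depends on the estimate.

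Replacement variants gave a contrast in the balance of types. The 18 genes of that list summed to 553 and 635 TPM, or 0.356 and 0.410 times the 70 members. For H3 the balance was the other way round: the H3.3 genes H3f3a, H3f3b and H3f3c summed to 362 and 426 TPM against 227 and 207 TPM for the 12 members, a ratio of 1.59 and 2.06. H3f3a was at 276 and 304 TPM and H3f3b at 77.0 and 96.8 TPM. For H2A, 7 variants summed to 111 and 113 TPM, or 0.283 and 0.294 times the members, led by H2afz (33.6 and 35.4 TPM), which serves at promoters. For H1, H1f0, a linker histone of cells that have left the cell cycle, was at 53.6 and 63.0 TPM, and 4 variants together came to 0.415 and 0.459 times the members. H3 was thus the only one of these 3 types in which variants exceeded members, in both libraries, and the second quantification gave ratios of 1.86 and 2.22. H3f3c, at 8.98 and 24.4 TPM, was the only variant 2-fold apart between the libraries, and the second quantification listed it at 0, which leaves that ratio to the other 2 genes.

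Genes that act on these messages were present at modest levels. Of 33 such genes listed for transcription and 3′ end processing, 30 matched a symbol and 27 reached 1 TPM in both libraries. Srrt was highest, at 35.5 and 33.6 TPM, then Nfyc, a subunit of the factor that binds CCAAT, at 28.4 and 27.9 TPM, Wdr33 at 24.7 and 24.2 TPM and Cpsf1 at 25.0 and 21.7 TPM, the latter both of the cleavage machinery. Slbp, the stem-loop binding protein, was at 7.44 and 6.79 TPM, and Npat, a coactivator of histone genes, at 3.57 and 3.82 TPM. Of 21 chaperones, which carry histones to and from DNA, 20 reached 1 TPM, led by Nap1l4 (70.4 and 74.2 TPM), Rbbp7 (69.9 and 73.2 TPM), Npm1 (56.9 and 63.9 TPM) and Ncl (50.6 ± 0.877 TPM). Genes of DNA replication were lower, with 22 of 25 at 1 TPM or more and a sum of 99.0 and 119 TPM, led by Pcna, the sliding clamp (18.4 ± 2.21 TPM), Dut (10.7 and 14.3 TPM), Ung (10.1 and 9.70 TPM) and Mcm2 of the helicase (4.59 and 7.74 TPM). Genes of mitosis summed to 51.4 and 56.0 TPM over 20 genes, led by Top2a (6.71 and 6.19 TPM), Ube2c (4.52 and 5.19 TPM), Cdk1 (4.35 and 5.04 TPM) and Mki67 (4.19 and 3.95 TPM). In the transcription, chaperone, replication and mitosis lists 0 genes were 2-fold apart between the libraries.

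The libraries were close in most histone genes. Over the 63 members with a mean count of at least 10, the difference of log2(TPM + 1), replicate 1 minus replicate 2 with the median of all tested genes at 0, had a median of 0.08, beside 0.000 over 16384 genes. The levels in the libraries correlated across these 63 genes with Pearson's r = 0.951 on the log2(TPM + 1) scale and Spearman's rho = 0.968. This is a correlation across genes, which are no independent replicates, and copies share reads. The SD was under 10% of the mean in 34 members and under 20% in 50. A difference of at least 2-fold was met by 1 of 63 members, Hist2h2aa1, against 0.568% of all genes tested. It was at 7.26 TPM from 99.3 counts in replicate 1 and at 0 in replicate 2. Its deposited intervals overlap, from 1.64 to 20.1 TPM in replicate 1 and from 0.000397 to 8.09 TPM in replicate 2, around posterior means of 10.1 and 3.40 TPM. No fold is given, since its reads are divided with an identical coding sequence. Its copy Hist2h2aa2 leaned slightly the other way. Their sum, given above, was nearly equal in the libraries. A 1.5-fold rule added Hist1h2ad (6.30 and 3.38 TPM), Hist1h2an (4.39 and 1.88 TPM) and Hist1h4n (3.80 and 6.56 TPM), 4 members in all, against 2.50% of genes.

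Of the tested members 39 were higher in replicate 1 and 24 in replicate 2, where the median of all genes is at 0 by construction. The median difference was 0.10 in H1, 0.08 in H2A, 0.06 in H2B, 0.10 in H3 and -0.03 in H4, with 3 of 5, 10 of 17, 10 of 17, 10 of 11 and 6 of 13 members higher in replicate 1. The count ratio got an exact Clopper-Pearson interval, at 95% and covering counting error only. It lay above 1 in 12 members (10.9% of all genes) and below 1 in 13 (20.1% of all genes). This ratio is scaled by total counts and not centred on the median, so a ratio of 1 is not the same point as a difference of 0. Hist1h1e was at 23.8 and 32.1 TPM with a ratio of 0.729 (0.676 to 0.786), and Hist1h4h had a ratio of 0.847 (0.798 to 0.900), both higher in replicate 2. Hist1h4m had a ratio of 1.35 (1.18 to 1.53) and Hist1h2ab, at 18.8 ± 5.42 TPM, of 1.49 (1.21 to 1.83), both higher in replicate 1. The deposited intervals of Hist1h4m overlap between the libraries, at 53.1 to 72.8 and 39.4 to 56.1 TPM. Those of Hist1h2ab also overlap, at 16.9 to 27.0 and 10.2 to 19.3 TPM, while those of Hist1h1e and Hist1h4h do not. Hist1h4m shares 88.1% of its windows and Hist1h2ab 52.4%. Hist1h4n, the copy of Hist1h4m, leaned to replicate 2, and the pair summed to 72.0 and 56.4 TPM. Members whose model runs over 100 bases past the stem-loop had a median difference of -0.02, with 9 higher in replicate 1 and 12 in replicate 2. Those whose model ends within 100 bases of it had 0.11, with 17 and 5. Members with no stem-loop in the model also had 0.11, with 13 and 7. The DNA replication genes had a median of -0.22, with 20 of 25 higher in replicate 2. A difference between these lists was not tested.

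**Figure D3:**
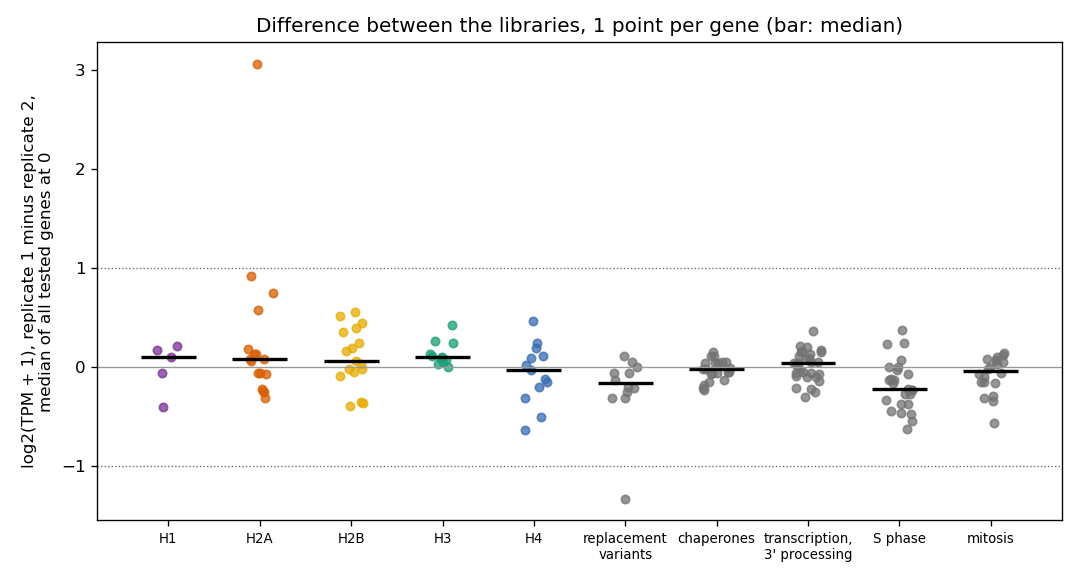
Difference of log2(TPM + 1) between the libraries, replicate 1 minus replicate 2, centred on the median of all tested genes, with 1 point per gene with a mean count of at least 10, a bar at each median and dotted lines at 2-fold. Hist2h2aa1 lies alone at 3.06 among H2A genes, and the S phase genes centre on -0.22.

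The choice of quantification moved single histone genes far more than the choice of library. Over the 63 tested members the second quantification held a median of 0.523 times the expected counts of the first, beside 1.07 over 16379 genes. Fewer than 0.5 times the counts were found for 30 of the 63 members, against 3.71% of all genes. This fell on H4 above all, with 11 of 13 members, against 8 of 17 H2A, 8 of 17 H2B, 3 of 11 H3 and 0 of 5 H1 members. In total the second quantification held 67.0% of the members' counts and 34.9% of those of H4. Levels correlated between the quantifications with Pearson's r = 0.297 on the log2 scale and Spearman's rho = 0.301 across the 63 genes, over the mean of the same libraries. The ranks of single histone genes thus depend on the estimate, with a few exceptions.

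Some genes kept their place. Hist1h4h ranked 1 in both, at 312 and 365 TPM in the second quantification. Hist1h1c ranked 3 in both, at 78.6 and 85.5 TPM there, and Hist1h1e was at 22.0 and 30.8 TPM, again higher in replicate 2. Copies exchanged their counts: Hist2h2aa1 was at 229 and 232 TPM and Hist2h2aa2 at 0 in the second quantification, the reverse of the first. The pair held 1902 and 1852 counts in the first quantification and 1656 and 1576 in the second, so the pair was high in both. On average Hist1h2ad was at 4.84 TPM in the first quantification and 68.8 TPM in the second, Hist1h2ae at 4.19 and 23.6 TPM, Hist1h2bb at 10.9 and 42.8 TPM and Hist1h2be at 4.44 and 15.7 TPM.

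Other genes held few counts in the second quantification. Hist1h4f held 364.6 and 328.7 counts in the first quantification and 4.0 and 5.1 in the second. Hist1h4d held 1125.1 and 1120.0 against 65 and 94, though no 100-base window of it occurs in another gene. The pair Hist1h2bq and Hist1h2br together held 365 and 456 counts against 4.40 and 7.73, and the pseudogene Hist1h2al 233.8 and 219.4 against 0. Hist1h2ba, at 0 in the first, was at 1.36 and 31.5 TPM in the second. It was the only one of 55 members compared that was 2-fold apart there, against 0.514% of all genes. The first quantification subtracts 99 bases from each model, and the models run from 312 to 7425 bases with a median of 522. Effective lengths of members ran from 213 to 7326 bases there and from 67.6 to 7091 bases in the second quantification. For Hist1h4h they were 371 bases in the first and 151 and 150.2 bases in the second. TPM divides counts by this length, so Hist1h4h held fewer counts in the second quantification but a higher TPM. Members with over 50% of windows shared had a median count ratio of 0.322, those over 10% to 50% one of 0.699, and those up to 10% one of 0.706. The part of read division, fragment length and alleles of CAST/EiJ in these differences was not tested.

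**Figure D4:**
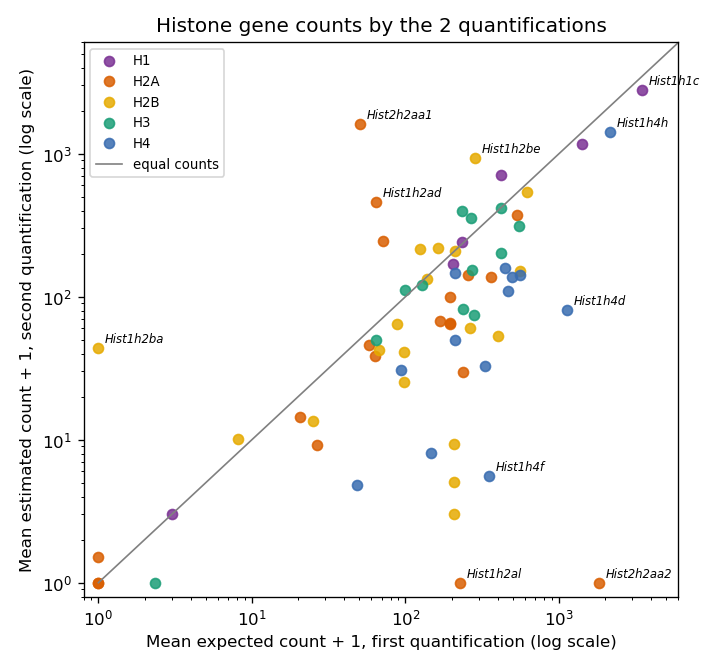
Mean count + 1 of each member in the second quantification against the first, both axes log, coloured by histone type, with the line of equal counts. All 13 H4 genes lie below the line, Hist2h2aa1 lies far above it and Hist2h2aa2 far below it, and Hist1h1c lies close to it.

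Overlap with other genes limits single values further. Of the 70 members, 23 overlap an annotated gene on the opposite strand and 7 one on the same strand, and the sources used here do not say whether counting used strand. Gm20634, a noncoding transcript in the Hist2 cluster that shares windows with Hist2h2aa and Hist2h3 genes, held 153.5 and 140.1 counts. Whole-number counts in both libraries, within 0.005, were found for 10 members, 6 of them above 0: Hist2h2be, Hist2h4, Hist4h4, Hist1h1b, Hist1h1a and Hist1h1t. For the others reads were divided by estimation. Coding sequences of equal length within a type are close, with a median identity of 96.4% in H2A, 97.2% in H2B, 97.2% in H3 and 93.9% in H4. Division of reads within a set of copies cancels in their sum, and division with genes outside the set does not.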

How the data were processed

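Total RNA of 2 heart libraries was analysed from tables the authors deposited, with assembly mm10 and annotation GENCODE M21 per the deposited readme files. The sources used here give neither the programs nor the handling of CAST/EiJ alleles. The first quantification holds, per the file headers, expected counts, TPM, a posterior mean TPM with interval bounds (a precision score) and each transcript's percent of its gene. The second quantification, deposited as transcript tables, holds estimated counts and TPM, here added up by gene. Of 81881 rows, the 55536 annotated genes were used, and 86 of them had no row in the second.

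Differences were taken on log2(TPM + 1), a pseudocount of 1, for genes whose mean expected count reached 10, after the median difference (-0.017) was removed, and called at 2-fold, a rule of size and not a test. On the pseudocount scale the change of low genes is understated. Ratios of counts, rounded and scaled by the totals of annotated genes, got exact Clopper-Pearson 95% intervals. Such intervals and the limit of 3 counts cover counting error only. On simulated data with 16384 genes and counting error only, the rule called 100 of 100 genes raised 4-fold and 100 of 100 lowered 4-fold, and 0 of 16184 unchanged genes. The changed genes had a mean count of at least 100, where a 4-fold change passes a 2-fold rule almost by construction. Changes in lower genes, such as Hist2h2aa1, and read division were not simulated. Alternatives used TMM factors from edgeR 4.0.16 and size factors from DESeq2 1.42.0 (R 4.3.3); other steps used Python 3.11.15, pandas 2.3.3, scipy 1.17.1 and Biopython 1.88.

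The members, lists and rules were chosen with earlier results of these data known. Named members are the 5 highest of each type, all of clusters with up to 5 members, those called apart, the 5 largest ratios each way between the quantifications, and members with several transcripts; of other lists, the 4 highest and any called apart. Other members named in the text were chosen after their values were seen.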

Additional observations from a re-analysis of the deposited data

How the results depend on the processing

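The summed level of 1551 TPM became 1658 in the second quantification, 1519 by posterior mean TPM, 3004 when scaled to genes without mitochondrial and small structured RNA genes, and 2116 with lengths to the end of the stem-loop (an alternative added after the data were seen). Without replicate 1 or replicate 2 it was 1549 to 1553. With the second quantification, shares of the summed TPM were 30.1% for H2A, 16.8% for H2B, 16.5% for H3, 27.6% for H4, 76.6% for Hist1, 22.6% for Hist2, 0.680% for Hist3 and 0.135% for Hist4. By expected counts they were 24.3% for H1, 19.2% for H2A, 15.9% for H2B, 12.5% for H3, 28.1% for H4, 17.0% for Hist2, 2.40% for Hist3 and 1.89% for Hist4. With lengths to the end of the stem-loop they were 14.5% for H1, 20.5% for H2A, 15.7% for H2B, 12.0% for H3, 37.3% for H4, 78.0% for Hist1, 17.2% for Hist2, 2.42% for Hist3 and 2.39% for Hist4. Without the 3 annotated pseudogenes, also added later, H2A took 23.4%, Hist1 78.6% and Hist2 20.3%. The cause of the shifts with the second quantification and the posterior mean was not tested; the other shifts follow from the altered lengths, scaling or members. Between 49 members (at 5 TPM) and 63 (at 0.1 TPM) passed other detection limits, and 61 to 62 without a replicate. Members called apart were 4 of 63 at 1.5-fold, against 2.50% of all genes. With DESeq2 size factors they were 2 of 63, against 3.03% of all genes. With a pseudocount of 0.1 they were also 2 of 63, against 2.51%. Both settings called Hist1h2an and Hist2h2aa1, and both counts lay near the share of all genes. With a mean count of at least 50 they were 0, against 0.474%, which leaves Hist2h2aa1 out of the 58 members compared. Of 35 named members, 30 moved by more than their SD in the second quantification, 13 of them upward, and 4 by posterior mean. No paired analysis was possible because the series holds 1 group. Under 10 counts were 7 of 70 members. At this depth such counts do not tell a low level from none. For Hist1h2ao, Hist1h2aj and Hist2h3c1, which share 91.7% or more of their windows, read division may also play a part. The part of depth or read division was not tested.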
